A study of Macaca mulatta with 48 samples.

Results

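To examine how the testis of aged rhesus monkeys (Macaca mulatta) differed between the breeding and the non-breeding season, single-cell RNA profiles of both testes of 2 animals aged 22 years were compared animal by animal. From each animal 1 testis had been removed in August, outside the breeding season, and the other in December, within it, so season cannot be told apart here from date, body side or the earlier removal of the first testis. The labels name no treatment, and each of the 4 libraries is 1 testis of 1 animal. All barcodes of these libraries with at least 300 genes, at most 30000 unique molecular identifiers (UMIs, the counted RNA molecules) and a mitochondrial share of at most 3% were taken, which kept 44195 cells of the 112150 in the whole series of 12 libraries (39.4%). The other libraries came from 2 prepubertal and 2 adult animals, and the adult ones, with 29037 cells, were clustered together with the aged ones and are otherwise used to ask whether the seasonal change was the same in both ages.

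Rhesus monkeys breed seasonally, and the testis shrinks and makes fewer sperm outside the breeding season. In the seminiferous tubule, spermatogonia divide, enter meiosis as spermatocytes and become round and then elongated spermatids, in which transition proteins and protamines replace histones. Sertoli cells nurse these germ cells, contractile peritubular cells wrap the tubule, and the interstitium between tubules holds stromal cells, steroid-producing Leydig cells, vessels and immune cells.

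The 4 libraries held 23072680 to 38474624 UMIs, with a median of 1777 to 2384.5 UMIs per cell, and predicted doublets were removed after clustering, leaving 40121 cells. Of 45 clusters, 31 were grouped as 11 cell classes by marker genes, whose summed level was 2.45 to 218 times that of the remaining cells of the same library. One class, cluster 30 alone, is given by its number, because 16 markers of T and NK cells were raised in it but its leading gene was the immunoglobulin IGKC and its score for B and plasma cell markers (3.006) was above that for T and NK markers (2.801). The non-breeding library of animal 1 stood apart: cluster 30 made up 13.2% of its cells against at most 0.688% in the other libraries, and red-cell transcripts reached 1586 to 8873 CPM (UMIs of a gene scaled to a common total of UMIs in each class and library) in its classes, against at most 693 CPM elsewhere. RNA of elongated spermatids was also counted in cells that should lack it, at 31722 to 66198 CPM in Sertoli cells and 78313 to 142192 CPM in cluster 30. The part of such free RNA in the changes below was not tested, so each gene was also compared with its level in the remaining cells of its library.

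Which cells were present in each season was asked first. Sertoli, peritubular and interstitial stromal cells took a smaller share of the cells in the breeding library of both animals, and late spermatocytes and elongated spermatids a larger one, but no class passed the test. Germ cells made up 72.5% of the breeding library of animal 1 (95% Wilson interval 71.5 to 73.6) and 30.2% of its non-breeding library (29.4 to 31.1). In animal 2 they made up 88.9% (88.3 to 89.5) and 83.1% (82.5 to 83.8). Unnamed cells took a further 20.04% and 23.3% of the breeding and non-breeding cells of animal 1 and 4.55% and 6.06% of those of animal 2. The unnamed cluster 4, in which 9 round spermatid markers were raised, held 1160 and 995 cells of animal 1 and 90 and 58 of animal 2, and these are in none of the germ cell shares and ratios given here. The gap between seasons in named germ cells was thus wider in animal 1 than in animal 2. Sertoli cells were 0.545% of the breeding cells of animal 1 (0.397 to 0.747) and 1.80% of its non-breeding cells (1.57 to 2.06). In animal 2 the values were 0.274% (0.188 to 0.398) and 1.61% (1.40 to 1.85). The Sertoli shares of the seasons did not overlap, and they rested on 38, 208, 27 and 189 cells. These intervals cover counting error only.

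Elongated spermatids were 18.7% and 10.7% of the breeding and non-breeding cells of animal 1, and 43.3% and 35.1% of those of animal 2. Both libraries of animal 2 were thus above both of animal 1, so the animals differed more than the seasons. Late spermatocytes, the meiotic cells from pachytene onward, were at 18.8% and 10.4% in animal 1 and 17.5% and 15.1% in animal 2. Round spermatids went in opposite directions, with 29% and 8.44% in animal 1 and 25.8% and 27.6% in animal 2. So did spermatogonia, at 1.88% and 0.347% in animal 1 and 0.599% and 2.53% in animal 2, and early spermatocytes, at 4.16% and 0.442% in animal 1 and 1.73% and 2.90% in animal 2. Spermatids outnumbered Sertoli cells 87.6 to 1 in the breeding library of animal 1 and 10.6 to 1 in its non-breeding library. In animal 2 the ratios were 252 and 38.9. The number of elongated per round spermatid, 0.646 and 1.26 in animal 1 and 1.68 and 1.27 in animal 2, moved in opposite directions.

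Interstitial stromal cells were 2.88% and 16.6% of the breeding and non-breeding cells of animal 1 and 1.57% and 3.59% of those of animal 2. Peritubular and smooth muscle cells were at 1.38% and 4.22% in animal 1 and at 1.91% and 3.59% in animal 2. Both classes were thus lower in the 2 breeding libraries than in either non-breeding library. Endothelial cells (0.760%, 8.11%, 1.97% and 1.28%, in the order animal 1 breeding, animal 1 non-breeding, animal 2 breeding, animal 2 non-breeding, which all groups of 4 values below follow) were lower in the breeding season in animal 1 only. Cluster 30 was largest in the non-breeding library of animal 1, with 48, 1521, 32 and 29 cells. In edgeR's quasi-likelihood test of the cell counts with animal as a term, 0 of 11 classes passed an adjusted p of 0.05 and 0 had an unadjusted p under 0.05. The Sertoli share had the smallest p, with a log2 change of -2.13 (SE 1.39, adjusted p = 0.770), and an exact permutation over 2 pairs cannot give a p below 0.5. Without the non-breeding library of animal 1 the log2 change of the share of cluster 30 was 1.02, so its direction rested on that library.

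**Figure D1:**
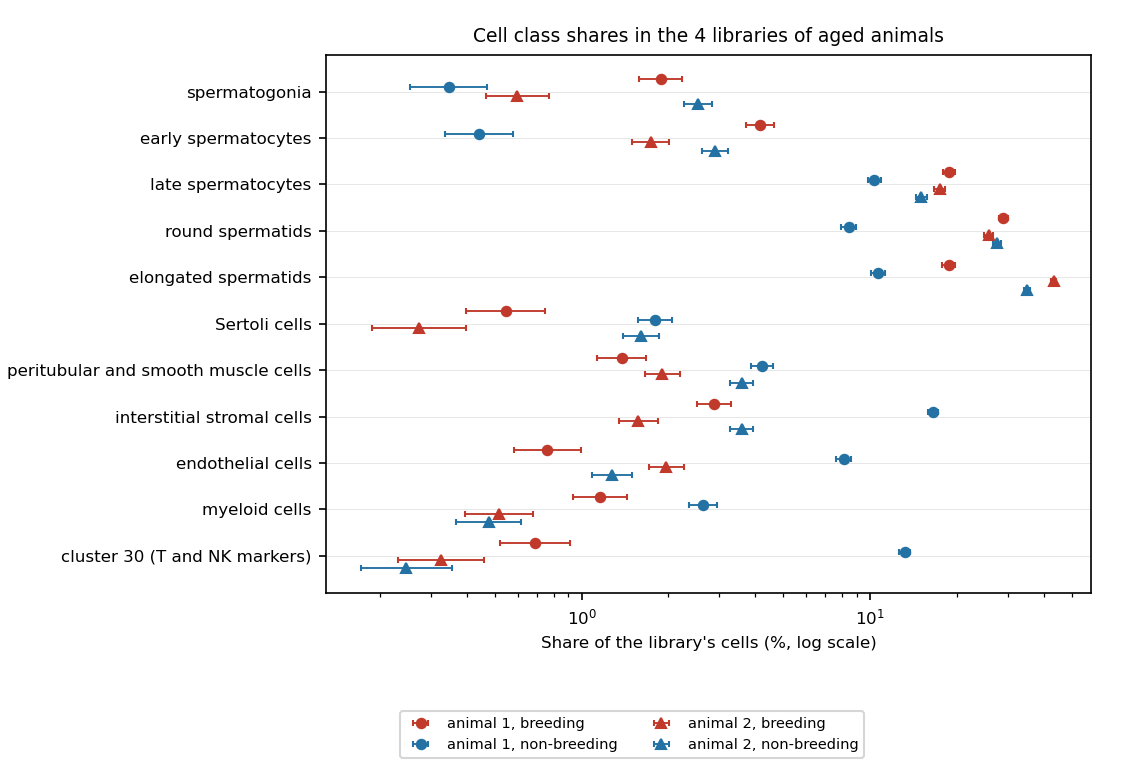
Share of each library's cells, in percent on a log axis, taken by each of the 11 classes, with circles for animal 1, triangles for animal 2, red for the breeding and blue for the non-breeding season, and bars for 95% Wilson intervals. Sertoli, peritubular and interstitial stromal cells are lower in the breeding library of both animals, and cluster 30 in the non-breeding library of animal 1 (13.2%) stands far above the other 3 values.

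Because the cell mixture differed, gene levels were compared within each class on UMIs summed per library. Few genes passed. Over all classes, 69 of 76016 gene and class pairs (0.0908%) passed an adjusted p of 0.05, 35 of them higher and 34 lower in the breeding season. The term for animal decided this, since 0 pairs passed without it (2243 had an unadjusted p under 0.05, against 5760 with it). DESeq2, with the same term, called 61 pairs, 49 higher and 12 lower: 32 in late spermatocytes, 26 in round spermatids, 3 in elongated spermatids and 0 in the other 8 classes. With DESeq2's size factors in edgeR, 35 genes were higher and 65 lower. Of the 69 pairs, 52 concerned genes at or above their level in the remaining cells and 13 concerned genes with no symbol. Changes are given as log2 of breeding over non-breeding.

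By edgeR's calls in the whole class, late spermatocytes held the most changes among germ cells. By single clusters more genes were called in round spermatids (259 against 122), but 193 of them in cluster 11, whose score for round spermatid markers (1.135) was close to that for late spermatocyte markers (1.025). In late spermatocytes 15 of 12577 genes passed (0.119%), 5 higher and 10 lower in the breeding season. The higher ones included the small heat shock protein HSPB1, the mitochondrial ribosomal protein MRPL52 and COX7C, a subunit of cytochrome c oxidase. The lower ones included TMEM225, a testis membrane protein, SSNA1, a microtubule-binding protein of centrosomes and cilia, and MBD2, a reader of methylated DNA.

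MRPL52 (chromosome 7, 84849423 to 84853721 on Mmul_10) was at 250, 149, 411 and 195 CPM and HSPB1 (chromosome 3, 44915073 to 44916786) at 381, 224, 480 and 242 CPM. Both breeding libraries were above both non-breeding libraries for each gene. MRPL52 rose by 0.95 (SE 0.16) and HSPB1 by 0.92 (SE 0.15) on the log2 scale, with an edgeR adjusted p of 0.0459 for each. COX7C was at 922, 572, 1285 and 670 CPM, a log2 change of 0.85 (SE 0.15, adjusted p = 0.0459). Its values are uncertain, because the annotation holds more than 1 locus for this subunit and the counting could split their reads. TP53TG5 was also higher, at 19.998, 8.59, 16.9 and 4.52 CPM (log2 change 1.57, SE 0.27, adjusted p = 0.0459), but it was below its level in the remaining cells.

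TMEM225 (chromosome 14, 116799206 to 116802089) was at 150, 271, 89.5 and 272 CPM, and SSNA1 (chromosome 15, 1017482 to 1018839) at 68.0, 137, 95.8 and 220 CPM. The non-breeding libraries were the higher ones in each animal, with no overlap. TMEM225 fell by 1.18 (SE 0.19) and SSNA1 by 1.07 (SE 0.17) on the log2 scale, each with an edgeR adjusted p of 0.0322. MBD2, at 23.4, 51.1, 19.2 and 57.2 CPM, fell by 1.31 (SE 0.20, adjusted p = 0.0322). The remaining cells of the libraries had the same order within each animal for all 6 genes, MRPL52, HSPB1 and COX7C included. In them TMEM225 was at 79.4, 133, 34.9 and 118 CPM, SSNA1 at 13.3, 38.0, 14.1 and 35.3 CPM and MRPL52 at 148, 99.4, 199 and 102 CPM, so these differences were not shown to be particular to late spermatocytes. The immunoglobulin gene IGKC also passed in this class, with 10, 1216, 0 and 0 UMIs. Nearly all of its UMIs were in the non-breeding library of animal 1, the one rich in immune cells, and it was below its level in the remaining cells.

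**Figure D2:**
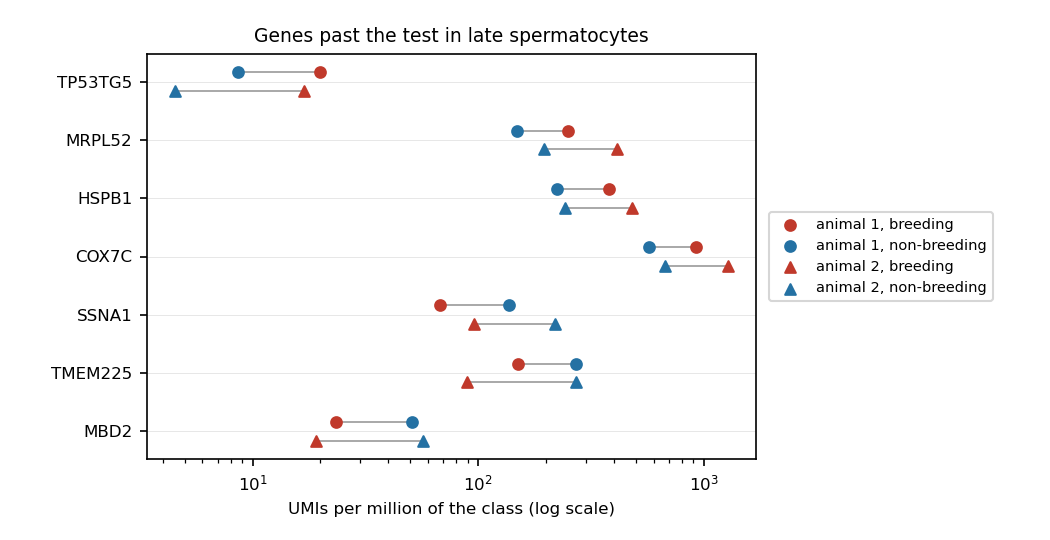
Levels of 7 genes past the test in late spermatocytes, in CPM of the class on a log axis, with circles for animal 1, triangles for animal 2, red for the breeding and blue for the non-breeding season, and a line joining the libraries of an animal. TP53TG5, MRPL52, HSPB1 and COX7C are higher in the breeding library of both animals and SSNA1, TMEM225 and MBD2 lower.

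The class was made of 4 clusters whose cells were spread unevenly, with 852 of the late spermatocytes of the non-breeding library of animal 2 in a cluster (number 10) that held 60, 44 and 83 cells in the other libraries. The changes were therefore recomputed in each cluster by itself, an analysis added after the class results were seen. Over all clusters of all classes 603 of 116966 gene and cluster pairs passed (0.516%), 394 higher and 209 lower, in 20 clusters. TMEM225 was lower in the breeding season in all 4 clusters of late spermatocytes, by 0.81 to 1.39 on the log2 scale, and passed in 3. MRPL52 was higher by 0.63 to 1.11 and passed in 3, and HSPB1 was higher by 0.70 to 0.92 and passed in 2. Of the 15 genes called in the class, 11 were also called in at least 1 of its clusters.

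Some genes were called in several clusters. The genes named in this paragraph and the next were chosen after their values were seen, as those called in the same direction in 3 or more clusters of any class. There were 47 higher and 23 lower genes, and 39 and 17 of them had a symbol. The higher ones held the elongin subunit ELOB and the ribosomal protein RPS26 in 7 clusters each, the ATP synthase subunit ATP5ME, the copper chaperone COX19 of cytochrome c oxidase and the protamine PRM1 in 6, and the transition proteins TNP1 and TNP2 in 4. In late spermatocytes ELOB was at 1491, 1087, 2786 and 1248 CPM and PRM1 at 8077, 7151, 13548 and 4549 CPM. ATP5ME was at 193, 176, 743 and 191 CPM, so that it was high in the breeding library of animal 2 alone. ELOB and PRM1 were likewise highest in that library. In the whole class ELOB, PRM1 and ATP5ME did not pass (edgeR adjusted p = 0.0750, 0.137 and 0.175). The summed markers of elongated spermatids, PRM1, TNP1 and TNP2 among them, were at 14166, 13867, 19421 and 8365 CPM in these cells, the same order as PRM1. The median transcript length was 546.5 bases for the 38 higher genes with a length and 1064 for the 17 lower ones, against 3206 over the 10426 genes with a length tested in late spermatocytes. The 2086 shortest of these, up to 1759 bases, had a median log2 change of -0.01. The 2140 shortest in round spermatids, up to 1764 bases, had -0.06. Both groups reach far above the median length of the higher genes, so they cannot show how transcripts of that length changed. Whether library construction or RNA quality moved with season was not tested.

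The lower genes held B2M, the light chain of MHC class I, in 7 clusters, the ribosomal protein RPL10 and TMEM225 in 6, the transcription factor BTF3 and the actin-binding TMSB4X in 5, and the protamine PRM2 in 4. B2M in late spermatocytes was at 9.67, 83.3, 7.78 and 13.3 CPM, so it was high mainly in the non-breeding library of animal 1. RPL10, at 16.1, 92.4, 14.2 and 21.5 CPM, and the matrix protein DCN, at 1.97, 26.5, 3.63 and 6.07 CPM, were likewise highest in that library. BTF3 was spread more evenly, at 296, 409, 148 and 312 CPM, with both breeding libraries below the others. Of the 17 lower genes with a symbol, 5 lay on the X chromosome (29.4%), RPL10 among them, against 0 of 37 higher genes and 1.87% of the genes tested in late spermatocytes. In late spermatocytes all 5 were highest in the non-breeding library of animal 1. Besides RPL10, TMSB4X was at 3.28, 63.8, 3.803 and 7.34 CPM and RPS4X at 20.8, 62.2, 14.7 and 23.2 CPM. FATE1 was at 8.03, 44.5, 25.1 and 27.1 CPM and HPRT1 at 4.1, 14.4, 7.09 and 10.5 CPM. The part of that library in the X share was not tested. PRM1 and PRM2, the protamine pair that packs sperm DNA, stood on opposite sides among the higher and lower genes. In late spermatocytes PRM2 was at 835, 1479, 1008 and 1048 CPM. In that class B2M, RPL10, DCN, BTF3 and PRM2 did not pass (edgeR adjusted p = 0.0750, 0.0858, 0.0900, 0.106 and 0.385).

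In round spermatids 0 of 13298 genes passed edgeR in the class (0%), while 1366 had an unadjusted p under 0.05 and DESeq2 called 26, 23 of them higher. PEX16, which acts in peroxisome membrane assembly, was at 244, 91.7, 555 and 146 CPM, with both breeding libraries above both non-breeding ones. Its log2 change was 1.75 (SE 0.20, unadjusted p = 1.38e-05, edgeR adjusted p = 0.183). TMEM210, at 895, 410, 1401 and 772 CPM, had the same order (log2 change 1.07, SE 0.15, adjusted p = 0.299). It passed in clusters 2, 11 and 14 of this class and in cluster 18 of late spermatocytes, by 0.68 to 1.41. Clusters 11 and 14 held more of the class outside the breeding season in both animals. Cluster 11 held 21.9%, 40.6%, 22.2% and 27.2% of it and cluster 14 held 16.1%, 27.8%, 10.0% and 20.8%. The part of this makeup in the values of the class was not tested. Within single clusters of round spermatids PEX16 was higher by 1.35 to 1.92 in all 6, and 193 genes passed in cluster 11, 154 in cluster 14, 24 in cluster 2 and 4 in cluster 34. In clusters 5 and 17 edgeR called 0, with 789 and 155 genes at an unadjusted p under 0.05. Of 19 tested genes of the acrosome, the enzyme-filled cap of the sperm head, 0 passed in round spermatids, 9 were higher in both animals and 2 lower, with a median log2 change of 0.30 against 0.00 over all genes. Of all genes tested in that class 22.1% were higher and 36.4% lower in both animals. In late spermatocytes 13 of 18 were higher in both animals and 1 lower, with a median of 0.25, against 24.9% higher and 33.1% lower over all genes. In elongated spermatids 2 of 19 were higher and 9 lower, against 14.4% and 41.0% of all genes.

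Elongated spermatids held 1 change among 11532 genes (0.00867%), a gene with no symbol at 0.908, 28.7, 0.642 and 7.53 CPM that was below its level in the remaining cells. In the non-breeding library of animal 1, 1140 of the 1230 elongated spermatids lay in cluster 13, whose leading genes included the globins HBE1 and HBA. The class could be tested by cluster only in clusters 7 and 8, which had 49 and 23 cells in that library. In cluster 8, 23 genes passed, 18 of them higher. In cluster 7 edgeR called 0, with 327 genes at an unadjusted p under 0.05.

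Early stages rested on few cells, 40 spermatogonia and 51 early spermatocytes in the non-breeding library of animal 1. Spermatogonia held 4 changes among 5582 genes (0.0717%), all higher in the breeding season. NELFB, a subunit of the negative elongation factor that pauses RNA polymerase II, was at 104, 33.6, 228 and 59.3 CPM. The breeding libraries were above both others, and it rose by 1.91 on the log2 scale (SE 0.40, edgeR adjusted p = 0.0048). SPTY2D1OS, at 264, 117, 474 and 137 CPM, rose by 1.59 (SE 0.36, adjusted p = 0.0215) but was below its level in the remaining cells. In early spermatocytes, the meiotic cells before pachytene, 6 of 7541 genes passed (0.0796%), 1 higher and 5 lower. PET100, needed to assemble cytochrome c oxidase, was at 33.1, 9.04, 218 and 25.6 CPM and rose by 2.99 (SE 0.60, adjusted p = 0.00155). The non-breeding value of animal 1 rested on 1 UMI. In the remaining cells PET100 was at 26.9, 25.2, 88.95 and 23.1 CPM, with the same order within each animal. There, as in late spermatocytes (38.4, 32.9, 165 and 32.9 CPM), it was high in the breeding library of animal 2 alone. The rise of PET100 was thus not shown to be particular to early spermatocytes. C7H14orf39, the orthologue of a human synaptonemal complex gene, was at 74.5, 497, 89.8 and 139 CPM and fell by 1.75 (SE 0.41, adjusted p = 0.0267). The non-breeding library of animal 1 was far above the other 3 for this gene. The class consisted of clusters 19 and 29, and cluster 19, in which nearly all UMIs of this gene were counted, held 37.6%, 82.4%, 46.2% and 47.2% of it. Within cluster 19 the gene was at 189, 560, 205 and 356 CPM and did not pass (log2 change -1.23, SE 0.29, adjusted p = 0.81). Cluster 29, whose score for early spermatocytes (0.891) was close to that for spermatogonia (0.822), had too few cells to be tested, and 0 of the 6 genes called in the class were called in cluster 19. HBE1, TMSB4X and VIM, genes of red cells, blood cells and mesenchyme, were also lower, and all 3 were below their level in the remaining cells.

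Of the somatic classes, peritubular and smooth muscle cells held most changes, 28 of 5745 genes (0.487%), 19 higher and 9 lower in the breeding season. The higher genes included RRAD, a small GTPase that restrains calcium channels, CACNB2, a calcium channel subunit, RERGL and ADIRF, 2 genes found in vascular smooth muscle, and PTN, a secreted growth factor. The lower genes included HOPX, a homeodomain cofactor, the amino acid transporter SLC38A2 and PEBP1, an inhibitor of the RAF kinase.

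RRAD (chromosome 20, 54097485 to 54101894) was at 162, 9.29, 203 and 22.9 CPM, from 20, 6, 34 and 8 UMIs. Both breeding libraries were well above the others, and RRAD rose by 3.53 on the log2 scale (SE 0.47, edgeR adjusted p = 3.35e-10). With so few animals, this p rests mainly on a spread estimated over genes together, not on that of RRAD between animals. DESeq2 called no gene of this class. The next 3 genes and CRIP1 were chosen after their values were seen. RERGL, at 356, 124, 358 and 54.3 CPM, rose by 2.01 (SE 0.40, adjusted p = 0.000847), and ADIRF, at 494, 161, 944 and 169 CPM, by 2.01 (SE 0.45, adjusted p = 0.00587). CACNB2 was at 170, 69.6, 179 and 14.3 CPM and rose by 2.08 (SE 0.41, adjusted p = 0.000847). In all 4 genes, RRAD included, the seasons did not overlap. PTN, at 81.0, 10.8, 47.8 and 8.58 CPM, rose by 2.64 (SE 0.72, adjusted p = 0.0496), on 10, 7, 8 and 3 UMIs. CRIP1, a LIM domain protein, was at 162, 97.5, 502 and 31.5 CPM, and DGKG, a diacylglycerol kinase, at 97.1, 18.6, 59.7 and 2.86 CPM. The 2.86 CPM of DGKG stood for 1 UMI. PEBP1, at 0, 46.4, 11.9 and 88.7 CPM, fell by 3.34 (SE 0.79, adjusted p = 0.0101), and HOPX, at 8.10, 102, 5.97 and 40.0 CPM, by 3.25 (SE 0.77, adjusted p = 0.0101). PEBP1 rested on 0, 30, 2 and 31 UMIs and HOPX on 1, 66, 1 and 14, so the size of both falls is uncertain. In the remaining cells PEBP1 was at 21.6, 38.5, 19.7 and 31.7 CPM and HOPX, also a Sertoli marker, at 14.3, 77.7, 17.2 and 31.9 CPM. The order within each animal was the same, so these falls were not shown to be particular to the class.

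The makeup of the class differed between the libraries of animal 2, and its part in these changes was not tested. The class consisted of 2 clusters, numbers 20 and 25, whose scores for peritubular and smooth muscle markers were 3.947 and 3.269. Cluster 20 held 40.6%, 45.8%, 42.0% and 4.03% of the class, with 17 cells in the non-breeding library of animal 2. RRAD and RERGL were counted almost only in cluster 20. Within this cluster RRAD was at 411, 19.6, 491 and 339 CPM and RERGL at 905, 258, 867 and 1610 CPM, so the order held in animal 1 for both genes and in animal 2 for RRAD, where it rested on 4 UMIs. Cluster 20 had too few cells in that library to be tested. In cluster 25 ADIRF was at 320, 70.6, 448 and 148 CPM and rose by 1.77 (SE 0.37, adjusted p = 0.0129). Cluster 25, in which 5 genes passed, had a higher score for stromal markers (4.14) than for peritubular ones (3.27). In all, 3 of the 28 genes called in the class were also called in it. Of 19 tested genes of the contractile apparatus, 0 passed, 12 were higher in both animals and 0 lower, with a median log2 change of 0.41 against -0.01 over all genes, of which 27.8% were higher and 24.4% lower in both animals. ACTA2, smooth muscle actin, was at 4031, 2111, 5316 and 4579 CPM.

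**Figure D3:**
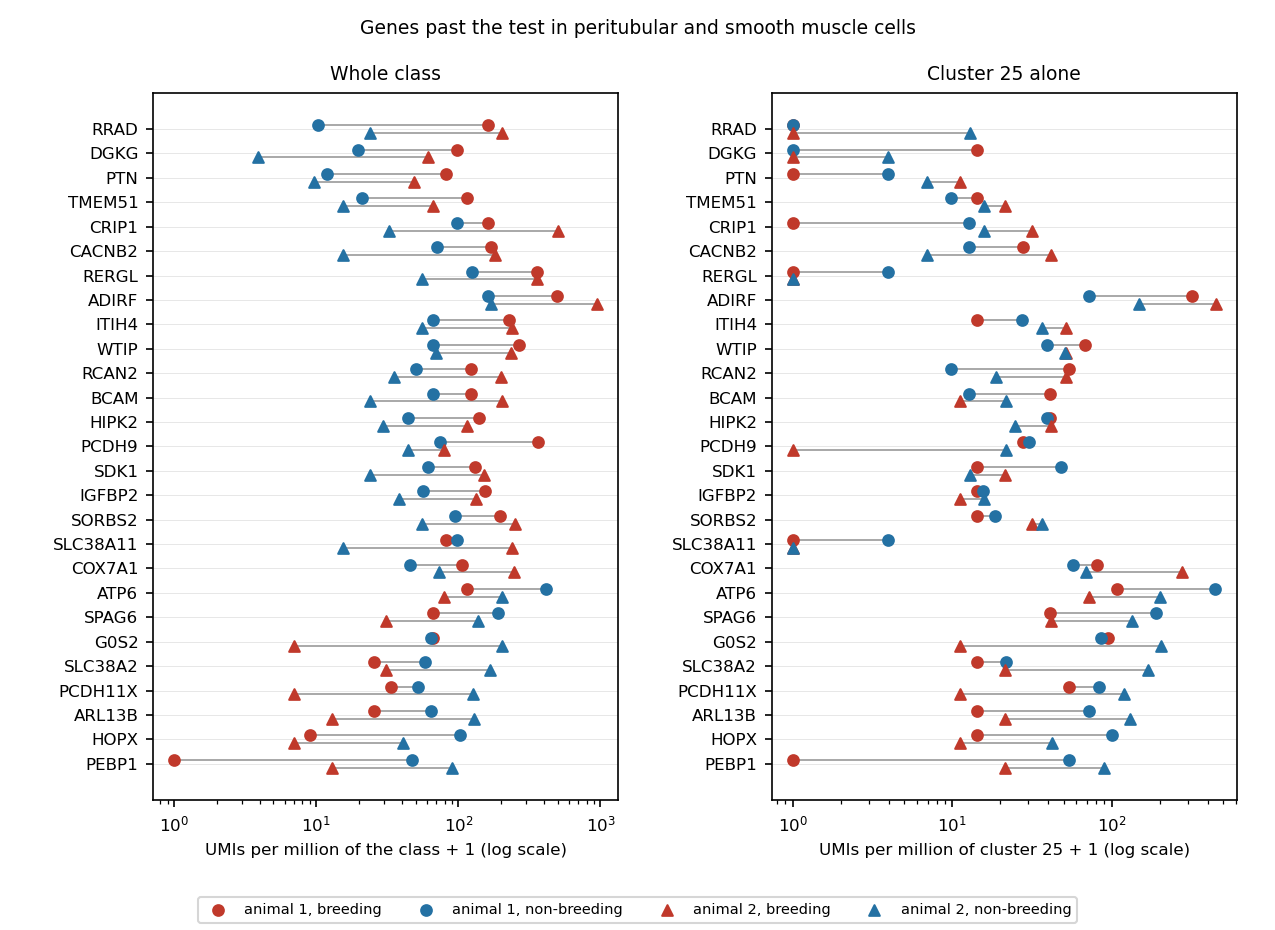
Levels of the 27 genes with a symbol past the test in peritubular and smooth muscle cells, as CPM plus 1 on a log axis, in the whole class (left) and in cluster 25 alone (right), with circles for animal 1, triangles for animal 2, red for the breeding and blue for the non-breeding season. The 2 seasons stand apart in the class for most genes, while in cluster 25 RRAD and RERGL are near 0 in most libraries and ADIRF is still higher in the breeding library of both animals.

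Myeloid cells, counted at 81, 305, 51 and 56 in the 4 libraries, held 9 changes among 1940 genes (0.464%), 4 higher and 5 lower. PDK4, a kinase that turns pyruvate away from oxidation, and RETN, the secreted protein resistin, were higher in the breeding season, and the tryptophan-degrading enzyme IDO1, the prostaglandin D synthase PTGDS and the immunoproteasome subunit PSMB9 were lower. PDK4 was at 189, 6.38, 211 and 50.8 CPM and rose by 3.76 (SE 0.81, edgeR adjusted p = 0.0425), from 21, 4, 12 and 3 UMIs. RETN was at 324, 89.3, 581 and 237 CPM and rose by 1.55 (SE 0.35, adjusted p = 0.0453). For both genes the breeding libraries were above both others. C19orf71, at 351, 92.5, 194 and 50.8 CPM, was also called higher. It was below its level in the remaining cells, which was 393, 155, 383 and 332 CPM with the same order within each animal.

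IDO1 was at 135, 1748, 211 and 406 CPM and fell by 2.71 (SE 0.50, adjusted p = 0.0222). The non-breeding library of animal 1 was far above the rest, but animal 2 had the same order, on 12 and 24 UMIs. PSMB9 was at 135, 386, 123 and 440 CPM, with no overlap of the seasons, and fell by 1.70 (SE 0.37, adjusted p = 0.0425). PTGDS, at 17.98, 206, 141 and 677 CPM, fell by 2.73 (SE 0.45, adjusted p = 0.0104), on 2, 129, 8 and 40 UMIs. In the remaining cells of these libraries PTGDS was at 82.3, 322, 135 and 332 CPM, which is the same order within each animal. LGALS3, a galectin of macrophages, at 270, 617, 264 and 982 CPM, fell by 1.56 (SE 0.34, adjusted p = 0.0425). It was also called lower in germ cell clusters 11, 14 and 23. In the remaining cells LGALS3 was at 15.6, 82.6, 12.9 and 30.7 CPM and PSMB9 at 4.31, 59.6, 5.45 and 7.99 CPM. IDO1 was at 0.0957, 17.2, 0.123 and 0.183 CPM there. The order within each animal was the same for all of these, so the falls were not shown to be particular to myeloid cells. Of 9 tested interferon-induced genes, PSMB9 passed and 8 were lower in both animals in the breeding season, with a median log2 change of -1.001 against -0.02 over all genes, of which 24.1% were lower in both animals. Of 14 macrophage state genes 1 passed, LGALS3, and 4 were higher and 4 lower in both animals.

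In endothelial cells 3 of 5043 genes passed (0.0595%), 2 higher and 1 lower. INSR, the insulin receptor, was at 337, 163, 433 and 49.6 CPM and rose by 1.89 (SE 0.41, edgeR adjusted p = 0.0108). ESR2, estrogen receptor beta, was at 195, 41.2, 179 and 77.2 CPM and rose by 1.75 (SE 0.41, adjusted p = 0.0391). In both genes the breeding libraries were above the others, although the non-breeding library of animal 2 gave only 9 and 14 UMIs. These were the 2 of 7 tested hormone receptors that passed, and 6 of the 7 were higher in both animals, with a median of 0.40 against -0.01 over all genes, of which 26.8% were higher in both animals. Over the 9 classes with at least 3 hormone receptors tested, 28 of 69 pairs were higher and 16 lower in both animals (40.6% and 23.2%). By class 14.4% to 32.6% of all genes were higher and 22.3% to 41.0% lower, a range over all 11 classes. CNBD1 was lower, at 0, 105, 49.98 and 215 CPM, and below its level in the remaining cells. The chemokine CXCL12 was at 77.9, 38.3, 142 and 16.5 CPM (log2 change 1.83, SE 0.49, adjusted p = 0.0785), and the growth factor IGF2 at 156, 277, 112 and 667 CPM (log2 change -1.81, SE 0.45, adjusted p = 0.0569). Neither passed. Of 9 vascular genes 0 passed.

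**Figure D4:**
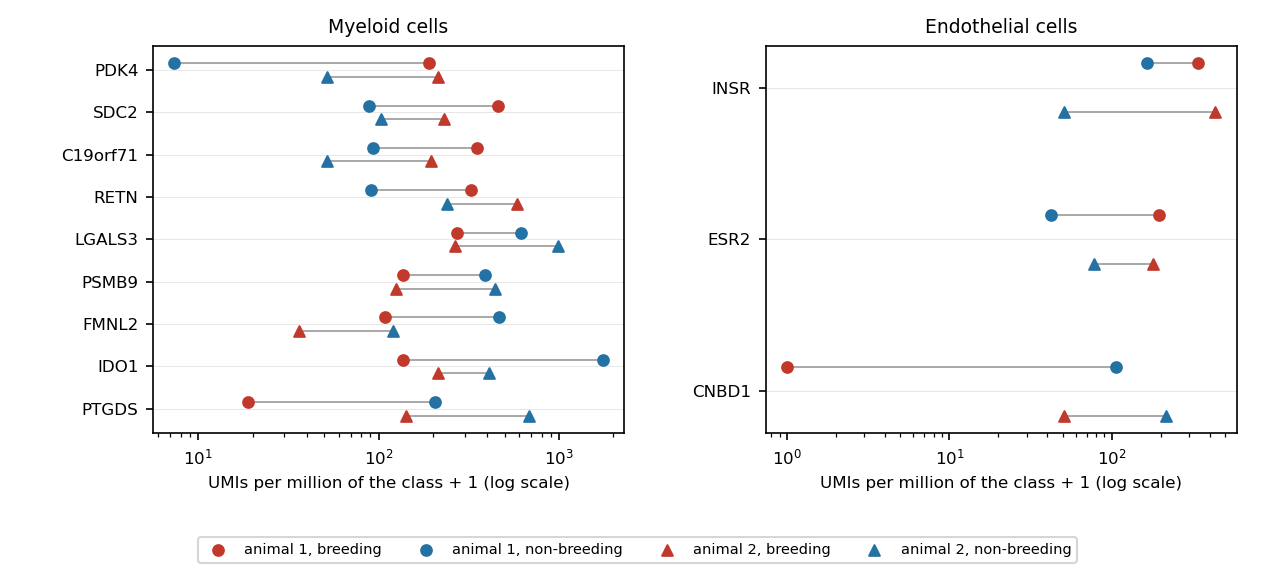
Levels of the genes past the test in myeloid (left) and endothelial cells (right), as CPM of the class plus 1 on a log axis, with circles for animal 1, triangles for animal 2, red for the breeding and blue for the non-breeding season, and a line joining the libraries of an animal. PDK4, SDC2, C19orf71, RETN, INSR and ESR2 are higher in the breeding library of both animals and LGALS3, PSMB9, FMNL2, IDO1, PTGDS and CNBD1 lower.

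Interstitial stromal cells held 3 changes among 6405 genes (0.0468%), all lower in the breeding season. In cluster 26, the only cluster of the class that could be tested by itself, 0 genes were called. ATP6, a mitochondrially encoded subunit of ATP synthase, was at 139, 398, 48.0 and 173 CPM and fell by 1.70 (SE 0.32, edgeR adjusted p = 0.0373). It also fell in peritubular cells, from 410 to 113 CPM in animal 1 and from 203 to 77.6 CPM in animal 2 (log2 change -1.67, SE 0.43, adjusted p = 0.0305). ATP6 had the same order within each animal in the cells other than stromal ones, at 48.5, 224, 65.2 and 104 CPM, and the median mitochondrial share of UMIs per cell was 0.236% in the non-breeding library of animal 1 against at most 0.0455% in the other aged libraries. The protamine PRM2, a spermatid gene, was at 4046, 7507, 4852 and 11122 CPM in stromal cells and fell by 1.12 (SE 0.19, adjusted p = 0.0226). It was at 3758, 5993, 5280 and 9333 CPM in the remaining cells, near the stromal levels and with the same order within each animal, while the summed markers of elongated spermatids were at 66749, 66497, 92304 and 96919 CPM in them. In the non-breeding library of animal 2, 238 of the 422 stromal cells lay in cluster 37, which held at most 15 in the others. Of 33 tested matrix genes 0 passed, 16 were higher in both animals and 3 lower, with a median of 0.23. Of 11 tested clock genes 0 passed, 8 were higher in both animals, and the median was 0.40 (all genes -0.01). Of all genes tested in stromal cells 31.4% were higher and 22.3% lower in both animals. Neither list leaned this way in every class. In Sertoli cells 1 of 9 matrix genes was higher and 4 were lower (median -0.32), and in peritubular cells 2 of 12 clock genes were higher and 3 lower (median -0.23). The shares over all genes of Sertoli and peritubular cells are given with those classes. Over the 9 classes with at least 3 clock genes tested, 24 of 88 pairs were higher and 22 lower (27.3% and 25%), so the clock list showed no lean over the classes. The clock gene PER1 was at 60.9, 48.1, 75.5 and 35.0 CPM and PER3 at 170, 71.8, 82.4 and 86.5 CPM.

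Steroid-producing cells were scarce. Of the steroid synthesis genes 5 could be tested in stromal cells and 0 passed. CYP17A1, which makes androgen precursors, and INSL3, a Leydig cell hormone, were looked for in cluster 43, an unnamed cluster of 8, 84, 24 and 79 cells in which PTGDS was also abundant. In it CYP17A1 had 33, 282, 11 and 0 UMIs, of 62, 349, 29 and 33 in the whole libraries. INSL3 had 6, 124, 8 and 0, of 7, 148, 10 and 7. STAR, which brings cholesterol into mitochondria, had 10, 91, 10 and 3, of 802, 1597, 578 and 1312. HSD3B2, also of the Leydig markers, had 0, 1, 0 and 0, of 32, 104, 41 and 139. Most UMIs of STAR and HSD3B2, and of the Leydig markers HSD17B3 and LHCGR, thus lay outside this cluster. The non-breeding library of animal 2 thus held cells of this cluster without CYP17A1 or INSL3 UMIs, and its few UMIs of both genes lay in other cells.

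In Sertoli cells 0 of 5527 genes passed in edgeR (0%) or in DESeq2, and 138 had an unadjusted p under 0.05 in edgeR. The lowest p belonged to NAV2, a neuron navigator protein, at 135, 33.2, 237 and 30.6 CPM (log2 change 2.36, SE 0.56, edgeR adjusted p = 0.414), from 16, 15, 11 and 12 UMIs. Both breeding libraries were above both others. Cluster 15 held 57.9%, 72.1%, 88.9% and 40.7% of the class, and the part of this uneven makeup was not tested. Of 21 genes of the junctions that form the blood-testis barrier 0 passed, 10 were higher and 2 lower in both animals, with a median of 0.08, against 25.7% higher and 22.8% lower over all genes tested. Over their 3 classes 14 of 52 pairs were higher and 18 lower (26.9% and 34.6%). The share over all genes differed between these classes, so no lean is read from this. Of 17 genes of Sertoli cell function 0 passed, 2 were higher and 1 lower. Cluster 30 held 0 changes among 826 genes in edgeR (0%) and in DESeq2, and 55 at an unadjusted edgeR p under 0.05. The immediate early gene JUN was at 579, 167, 496 and 157 CPM there (log2 change 1.76, SE 0.28, adjusted p = 0.72), with no overlap of the seasons. B cell and plasma cell markers summed to 37990, 15296, 937 and 1415 CPM in this cluster, so its makeup differed between the animals.

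Some gene groups leaned the same way in many classes without a call. Antioxidant genes gave 158 gene and class pairs in 11 classes, of which 0 passed, 57.0% were lower in both animals in the breeding season and 3.16% higher. Their median lay between -0.67 in myeloid cells and -0.21 in late spermatocytes. Over all genes tested, 22.3% (stromal cells) to 41.0% (elongated spermatids) were lower in both animals, and 88 of the 158 pairs concerned genes at or above their level in the remaining cells. The antioxidant median was below the median of all genes in both animals in 10 classes, the exception being Sertoli cells, where animal 1 had the opposite sign. GPX4, which protects lipids and forms part of the sperm mitochondrial capsule, was at 875, 1371, 1038 and 1402 CPM in late spermatocytes and at 816, 1318, 991 and 1365 CPM in round spermatids, in both below its level in the remaining cells. The iron store FTH1 in myeloid cells was at 3578, 5407, 3575 and 6518 CPM. In each of these the non-breeding libraries were higher without overlap. In late spermatocytes 33.1% of all genes tested were lower in both animals, and 11 of 16 antioxidant genes were.

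Interferon-induced genes gave 106 pairs in the 9 classes with at least 3 of them tested, with 1 call (PSMB9 in myeloid cells), 55.7% lower in both animals and 7.55% higher. Their median was below that of all genes in both animals in 7 of the 9 classes. In endothelial cells 15 of 24 were lower in both animals and 3 higher, against 28.4% and 26.8% of all genes tested there, and IFI6 was at 143, 268, 87.5 and 198 CPM (log2 change -1.04, SE 0.41, edgeR adjusted p = 0.396). In endothelial cells the 24 genes were at or above their level in the remaining cells, while in late spermatocytes 0 of 11 were. Niche growth factors, counted in 4 somatic classes, gave 17 pairs with 1 call (PTN), and 58.8% were higher in both animals. Of all genes tested, at most 32.6% were higher in both animals in any of the 11 classes.

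**Figure D5:**
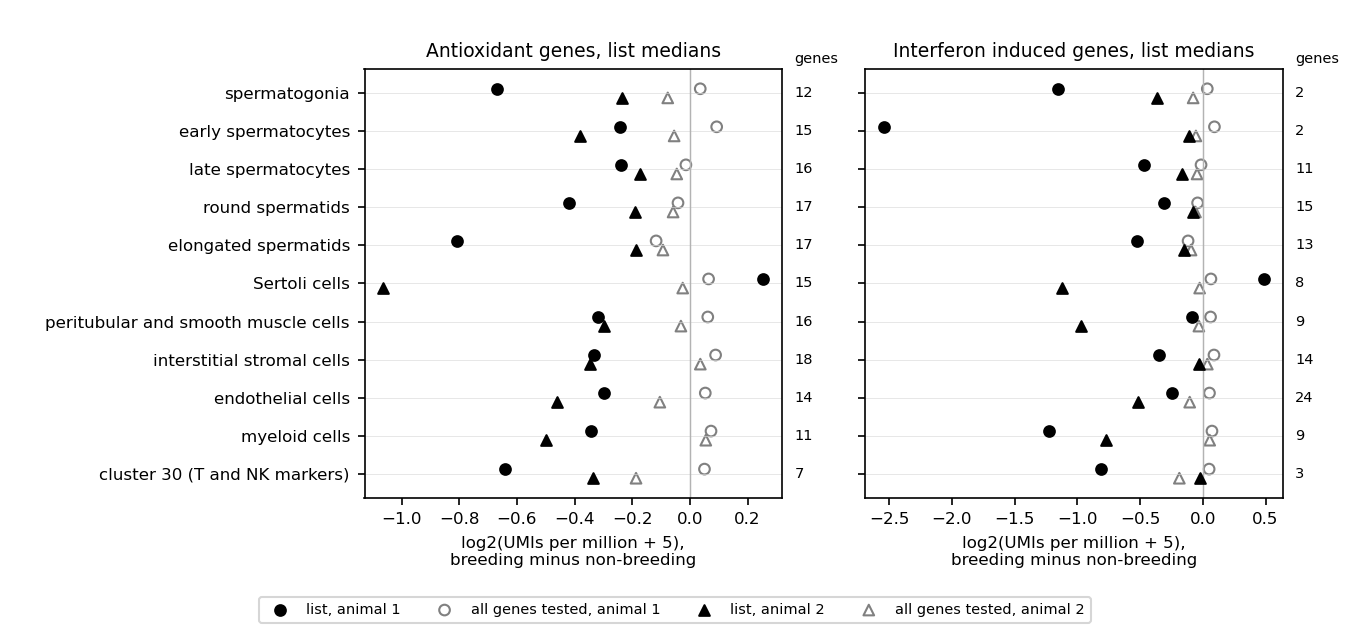
Median over the tested antioxidant (left) and interferon-induced genes (right) of the difference in log2 of CPM plus 5, breeding minus non-breeding, in each class, with filled symbols for the list and open ones for all genes tested, circles for animal 1 and triangles for animal 2, and the number of list genes at the right edge. The antioxidant medians lie below those of all genes in both animals in 10 of the 11 classes, Sertoli cells being the exception.

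Counts of lists are over the classes with at least 3 of their genes tested. Nuclear genes of the respiratory chain gave 587 pairs and 1 call (COX7C in late spermatocytes), with 30.7% lower and 23.9% higher in both animals, within the range over all genes of these classes (22.3% to 41.0% lower, 14.4% to 32.6% higher). Meiotic prophase genes gave 106 pairs and 0 calls, with 40.6% lower and 17.9% higher, against 24.1% to 36.4% and 22.1% to 24.9% over all genes of their 4 classes. However, C7H14orf39, called in early spermatocytes, was not matched to its name in the list and is not in these counts. Immediate early genes gave 136 pairs and 1 call (RRAD), with 26.5% lower and 12.5% higher in both animals. Their medians by class ran from -0.76 to 1.12. In late spermatocytes 10 of 14 were lower in both animals, against 33.1% of all genes tested there, all of them below their level in the remaining cells. Glycolysis (181 pairs), flagellum (119), DNA damage and apoptosis (87), meiotic division (58), cholesterol synthesis (48), glucocorticoid and androgen response (67), inflammation and senescence (40), proliferation (34), spermatogonial genes (16), MHC class II presentation (13), hemoglobin (9, without the early spermatocytes in which HBE1 was called) and cytotoxic lymphocyte genes (5) had 0 calls. Heat shock and cold inducible proteins had 1 (HSPB1), chromatin condensation 1 (PRM2 in stromal cells), mitochondrially encoded genes 2 (ATP6 in both classes) and barrier junctions 1 (VIM in early spermatocytes).

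Whether the seasonal change of aged animals differed from that of adults was asked last, with an interaction term in 1 model of both ages. A difference was called for 3076 of 95204 pairs (3.23%), 284 higher in the aged and 2792 lower. The adult change rested on 1 pair of libraries in 8 of 11 classes, because the breeding library of adult animal 2 held 117 cells, and 46 of its barcodes were also in the breeding library of aged animal 1. Of the lower calls 89.9% and of the higher calls 70.4% concerned genes below their level in the remaining cells, against 48.6% of the pairs tested. Without the animal term 111 pairs were called, and with DESeq2 793.

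Of the 47 gene and class pairs named by rule for the aged animals, 8 passed this test. TMEM225 in late spermatocytes, lower in the breeding season in the aged, was at 231 and 130 CPM in the breeding and non-breeding libraries of adult animal 1 and at 223 and 181 CPM in those of adult animal 2. The order was thus the opposite one in both adults, and the difference of the log2 changes was -1.91 (SE 0.49, edgeR adjusted p = 0.00428). The 223 CPM came from 7 UMIs. PTN in peritubular cells was at 34.2 and 95.8 CPM in adult animal 1 and RETN in myeloid cells at 306 and 450 CPM, the reverse of the aged order. The non-breeding library of adult animal 2, not in this fit, was at 10.97 CPM (1 UMI) and 54.1 CPM (3 UMIs), below these breeding values. The differences were 4.05 (SE 0.93, adjusted p = 0.0289) and 2.18 (SE 0.61, adjusted p = 0.009). In these classes the adult change had no replicate, so SE and p rest on the spread among the aged libraries alone, and the 34.2 CPM of PTN stood for 6 UMIs. By contrast RRAD (2.31, SE 0.97, adjusted p = 0.312), MRPL52 (0.75, SE 0.50, adjusted p = 0.498) and HSPB1 (0.33, SE 0.51, adjusted p = 0.844) did not pass. These misses do not show that the ages changed alike.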

How the data were processed

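The authors processed the 10x libraries with Cell Ranger 9.0.0 against Mmul_10 with Ensembl genes and deposited 12 matrices of raw UMI counts for 26530 features. No source used here says how intronic reads were handled. GEO lists 48 samples and no label names a matrix, so the age, season and animal of each matrix were read from the study's library sheet, and n is 2 animals. All cells of the aged and adult libraries that passed the thresholds were clustered in scanpy 1.11.5 (2000 variable genes, 30 components, 20 neighbours, Leiden resolution 2). Clusters were named by marker lists. The cells with the highest doublet scores (0.8% per 1000 cells) were removed only after this, before UMIs were summed.

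UMIs were summed per library and class with at least 20 cells in each library and tested with edgeR 4.0.16 in R 4.3.3 (quasi-likelihood, TMM, filterByExpr, animal as a block, Benjamini-Hochberg within each class, threshold 0.05). Where edgeR is named, its adjusted p is meant, and it is also meant for the other adjusted p values. The SE is the absolute log2 change divided by the square root of edgeR's F statistic. With 2 animals, the spread behind SE and p was estimated largely over genes together. A gene counted as higher or lower in both animals by log2 of its CPM plus 5. Animals pair the libraries. Deviations of libraries of the same animal correlated with r = 0.0509 (Sertoli cells) to 0.615 (round spermatids). Named genes were the 4 with the largest change each way among called genes with a symbol, at least 20 UMIs and 1 direction in both animals, with the 2 smallest p each way where a class had no call, list members that were called and, as examples, those with most UMIs. For the difference from adults they were the 3 with the smallest p each way. Gene positions are from RefSeq. Features with a shared symbol (173) were kept by identifier. Alternatives were no block, DESeq2 1.42.0, its size factors, no filter, each library left out, all 8 libraries in 1 fit, doublets kept, resolution 1 and at least 50 cells. The tests were tried on simulated counts. Cell classes, gene lists and comparisons were chosen with earlier results of these data known.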

Additional observations from a re-analysis of the deposited data

Results flagged for a closer look

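The seasonal changes below were set aside because the test of the difference itself, edgeR's interaction term between season and age, called them different in aged and adult animals. In all, 3076 gene and class pairs were called. Values are the aged minus the adult log2 change of breeding over non-breeding, and in all classes but late spermatocytes, round spermatids and elongated spermatids the adult change came from 1 pair of libraries and had no replicate.

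In germ cells, PET100 in early spermatocytes differed by 3.43, from 37.8 (9 UMIs) and 54.9 CPM in the breeding and non-breeding libraries of adult animal 1, while the non-breeding library of adult animal 2, not in the fit, had 36.5 CPM and that of aged animal 1 rested on 1 UMI. PRM2 differed by -5.02 in the same cells. TMEM225 differed by -1.91 in late spermatocytes and SPTY2D1OS by -2.32 in spermatogonia, where adult animal 1 had 319 and 22.3 CPM. The histone gene H4C3 differed by 3.95 in late spermatocytes, with 14.3 and 345 CPM in adult animal 1 and 63.6 (2 UMIs) and 35.1 CPM in adult animal 2, and by 5.18 in round spermatids. RAD51AP2, a partner of the recombination machinery, differed by 3.19 in late spermatocytes, with 14.5 and 185 CPM in adult animal 1 and 0 (no UMI in the small breeding library) and 81.0 CPM in adult animal 2. Neither H4C3 nor RAD51AP2 passed the season test in the aged (edgeR adjusted p = 0.751 and 0.814 in late spermatocytes). Both were among the leading genes of cluster 19, an early spermatocyte cluster with 43.25% of its cells from the non-breeding library of adult animal 1. In late spermatocytes 82.3% of the higher calls concerned genes below their level in the remaining cells. The part of free RNA in these differences was not tested. ELF1 (-9.60) and RNF217 (-5.69) in round spermatids rested on 70 and 32 UMIs in the small breeding library of adult animal 2.

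In somatic cells, MTFR1L (-4.37) and CETN3 (-4.20) differed in Sertoli cells, where the aged breeding libraries held 1 and 0 UMIs of each gene and adult animal 1 had 65.0 and 48.1 CPM of MTFR1L and 77.2 and 61.7 CPM of CETN3. Both genes were below their level in the remaining cells of each aged library. PTN differed by 4.05 in peritubular cells and RETN by 2.18 in myeloid cells, but the non-breeding library of adult animal 2, not in these fits, had 10.97 CPM of PTN and 54.1 CPM of RETN, below the breeding values of adult animal 1 (34.2 and 306 CPM). PRM2 differed by -4.10 in stromal cells, where adult animal 1 had 8047 and 1318 CPM of this spermatid gene.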

How the results depend on the processing

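Over all classes 69 gene changes were called, 0 without the replicate block for animal, 806 without the low-count filter, 364 with the adult libraries in the fit, 414 with doublets kept, 41 at the lower clustering resolution and 603 with each cluster by itself, a fit chosen after seeing the data. Leaving out a library, which allows no block and assumes the lone library to vary like the others, gave 97 (without breeding animal 2, 6 higher and 91 lower) to 199 (without non-breeding animal 2, 75 higher and 124 lower) calls. No named gene reversed. Of 35 called named genes, 0 were called without the block, 6 with DESeq2, 16 with its size factors, 30 without the filter, 23 with the adult libraries, 19 with doublets kept and 6 to 11 without 1 library. At the lower resolution 15 of 30 were called again, and with at least 50 cells 33 of 33. Differences from adults numbered 3076, 111 without the block, 793 with DESeq2, 75 to 158 without 1 aged library and 3078 without the small adult library.

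No class share passed with the block. Without non-breeding animal 2, 3 classes passed (endothelial cells, stromal cells and cluster 30). Without the block the log2 change of the share of spermatogonia reversed (-0.22). Leaving out 1 library moved it from -1.26 to 1.83, and the ranges were -0.29 to 1.54 for elongated spermatids, -0.0102 to 1.70 for round spermatids, -2.62 to 0.10 for endothelial cells, -1.66 to 0.81 for myeloid cells and -4.71 to 1.02 for cluster 30. All 6 reversed without non-breeding animal 1 (spermatogonia -1.03, elongated spermatids -0.18), spermatogonia also without breeding animal 1 and elongated spermatids without breeding animal 2. The cause was not tested in any case. The smallest classes (27 Sertoli cells and 29 cells of cluster 30 in 1 library) limit what could be detected.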

Other observations

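Further genes of the somatic niche, picked after their values were seen, had the same order in both animals in the whole class, with the 4 libraries again given as animal 1 breeding, animal 1 non-breeding, animal 2 breeding and animal 2 non-breeding. In peritubular and smooth muscle cells the laminin receptor BCAM was at 121, 65.0, 203 and 22.9 CPM, the insulin-like growth factor binding protein IGFBP2 at 154, 55.7, 131 and 37.2 CPM and the muscle isoform COX7A1 of a cytochrome c oxidase subunit at 105, 44.9, 245 and 71.5 CPM. These genes rose in the breeding season by 1.83 (edgeR adjusted p = 0.00629), 1.57 (0.0383) and 1.501 (0.0383) on the log2 scale, and the uneven share of cluster 20 given above applies to them as well. IGFBP2 was counted mostly in cluster 20, where it was at 370, 101, 304 and 678 CPM, so that animal 2 had the opposite order there, on 8 UMIs in its non-breeding library. The growth factor PDGFC in the same cells was at 40.5, 12.4, 77.6 and 8.58 CPM and did not pass (log2 change 2.32, adjusted p = 0.136).

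In myeloid cells the proteoglycan SDC2, at 459, 87.7, 229 and 102 CPM, rose by 1.99 (SE 0.40, edgeR adjusted p = 0.0379), and the formin FMNL2, at 108, 464, 35.2 and 119 CPM, fell by 2.11 (SE 0.44, adjusted p = 0.0425). For SDC2 the seasons did not overlap, and for FMNL2 they nearly met, with 108 CPM in a breeding library and 119 in a non-breeding one. In interstitial stromal cells the macrophage growth factor CSF1 was at 74.0, 35.2, 82.4 and 44.4 CPM with no overlap but did not pass (log2 change 0.92, SE 0.38, adjusted p = 0.686).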
